A study of Mus musculus with 14 samples.

Results

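A set of 10 genes of hepcidin control and iron handling, of the 19938 genes measured, was followed across liver from female mice aged 14 months. The genes were chosen by name, and each was read from its only probe that the array annotation gives to 1 gene. They are the hormone gene Hamp, the ligand Bmp6 and the target Id1, the iron sensors Hfe and Tfr2, the iron carrier and uptake genes Trf, Tfrc and Steap4, the exporter Slc40a1 and the storage gene Fth1. The samples were 6 tumour-free livers of Mdr2-KO/IL6-KO mice, which lack Mdr2 and interleukin 6, and 5 of Mdr2-KO mice, which lack Mdr2 alone, against 3 livers of wild-type C57BL/6 mice. Both mutant groups thus share the loss of Mdr2. That is an earlier symbol for Abcb4, a flippase of the hepatocyte's bile-facing membrane that supplies bile with phosphatidylcholine, and mice lacking it serve to study inflammation around bile ducts that ends in liver cancer. A strain is given for the wild-type mice only, so strain background and genotype cannot be told apart. All values are log2 signals of Affymetrix arrays, 1 array per sample, and a difference of 1 unit is a doubling.

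Hepcidin is a small peptide hormone made by hepatocytes. It binds ferroportin, the iron exporter encoded by Slc40a1, and has it broken down, so that less iron enters blood from gut and macrophages. Its gene answers to iron through BMP ligands, chiefly from sinusoidal endothelial cells, and SMAD proteins, and to inflammation through interleukin 6 and STAT3. The mouse has a paralog, Hamp2, next to Hamp. None of the protein steps was measured here.

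The regulatory stretch upstream of Hamp holds both inputs within a few bases, and it is shown with its counterparts from Hamp2, its paralog, from Steap4, the member that fell between the knockouts, and from Bmp6, the member that rose in both of them. Sequences are from RefSeq on GRCm38.p6, read 5′ to 3′ on the gene's strand. Capitals mark GGCGCC, the core of a BMP responsive element, and TTCNNNGAA, the STAT motif, both of which read the same on either strand, and in Bmp6 the E-box CACGTG.

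Hamp, chr7:30944070-30944189, minus strand, positions -160 to -41: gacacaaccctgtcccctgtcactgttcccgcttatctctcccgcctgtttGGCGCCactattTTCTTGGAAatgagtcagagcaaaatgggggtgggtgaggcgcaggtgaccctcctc

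Hamp2, chr7:30924219-30924338, minus strand, positions -157 to -38: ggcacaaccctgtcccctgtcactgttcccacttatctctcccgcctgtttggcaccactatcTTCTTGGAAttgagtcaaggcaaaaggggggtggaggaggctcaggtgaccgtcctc

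Steap4, chr5:7960312-7960431, plus strand, positions -160 to -41: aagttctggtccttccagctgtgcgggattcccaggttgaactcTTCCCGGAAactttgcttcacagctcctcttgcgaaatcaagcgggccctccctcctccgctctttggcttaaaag

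Bmp6, chr13:38345556-38345675, plus strand, positions -160 to -41: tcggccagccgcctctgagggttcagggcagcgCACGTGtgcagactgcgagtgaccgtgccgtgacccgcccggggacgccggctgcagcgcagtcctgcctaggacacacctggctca

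In Hamp, GGCGCC lies at positions -109 to -104 and the STAT motif at -97 to -89, counted back from the start site. In Hamp2 the STAT motif is the same, at -94 to -86, whereas the letters aligned with GGCGCC carry the substitution G4A, counted from 1 at the first base of the motif. Over the 297 aligned bases of the promoter window, 276 (92.9%) were identical between Hamp and Hamp2, which lie 18.186 kb apart in that assembly. Of 32851 mouse promoters of 300 bases, 11.9% hold GGCGCC, 8.30% hold the STAT motif and 0.645% hold both. Promoters were at hand for 7 of the 10 genes. Steap4 holds the STAT motif at -116 to -108, and Tfrc holds GGCGCC at -89 to -84. Bmp6 holds neither of them within 300 bases, and holds the E-box CACGTG, found in 7.15% of promoters, at -127 to -122. A match in these letters is a description and shows no binding.

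The targeted genes were read first. Abcb4 averaged 9.05 ± 0.20 in Mdr2-KO/IL6-KO livers (SD, n = 6) and 9.01 ± 0.19 in Mdr2-KO livers (n = 5), against 10.36 ± 0.03 in wild type (n = 3), and fell in both knockouts (adjusted p = 4.84e-06 and 5.09e-06). Il6 lay between 2.91 and 4.00 in every array, under the array's background of 5.48, so its probe checks no label. That background is the level under which 95% of 1027 olfactory receptor gene means lie. All 10 iron genes were above it. The hepatocyte markers were above it as well, in every group. Markers of other cells differed between groups. The linear signals of 7 cholangiocyte markers summed to 1347 to 2810 in Mdr2-KO/IL6-KO and 1354 to 2311 in Mdr2-KO arrays, against 662 to 983 in wild type. For 7 markers of recruited macrophages the sums were 3820 to 4638 and 2831 to 4366, against 2402 to 2455. Some lymphocyte and Kupffer cell markers fell, where 5.33% of all genes fell in Mdr2-KO/IL6-KO and 12.1% in Mdr2-KO against wild type. The 5 B cell markers summed to 299 to 481 and 258 to 365, against 388 to 735 in wild type, and 2 of them fell in each knockout. The 6 T cell markers summed to 333 to 514 and 316 to 488, against 499 to 903, and 3 fell in each. The 8 Kupffer cell markers summed to 3907 to 6435 and 3883 to 5946, against 5747 to 6895, and 1 fell in each. For Mdr2-KO that Kupffer cell count is near the share over all genes. The part of these cells in the iron gene values was not tested. In bulk liver, fewer cells of a type and less RNA per cell cannot be told apart.

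Hamp was high in 13 of the 14 arrays and low in 1. It read 12.43, 12.01, 12.30, 11.61, 12.29 and 11.71 in Mdr2-KO/IL6-KO livers and 12.58, 12.36, 11.82, 12.56 and 11.47 in Mdr2-KO livers, against 6.53, 12.04 and 11.80 in wild type. The wild-type livers numbered 2 and 3 lie inside the range of the knockouts, and wild-type liver 1 lies far under every other array. The fit gave a difference from wild type of 1.94 (SE 0.82, adjusted p = 0.147) for Mdr2-KO/IL6-KO and of 2.04 (SE 0.85, adjusted p = 0.0954) for Mdr2-KO, and neither passed the threshold of 0.05. Without wild-type array 1 the differences were 0.14 (SE 0.28, adjusted p = 0.830) and 0.24 (SE 0.28, adjusted p = 0.574). With wild-type array 2 left out instead, they were 2.90 (adjusted p = 0.0437) and 2.996 (adjusted p = 0.0258), so that 1 array decides the value. Between the knockouts, Mdr2-KO/IL6-KO minus Mdr2-KO, Hamp differed by -0.10 (adjusted p = 0.939), with a 95% interval from -1.60 to 1.40. That interval narrowed to between -0.54 and 0.34 when wild-type array 1, which widens the shared estimate of spread, was left out.

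**Figure D1:**
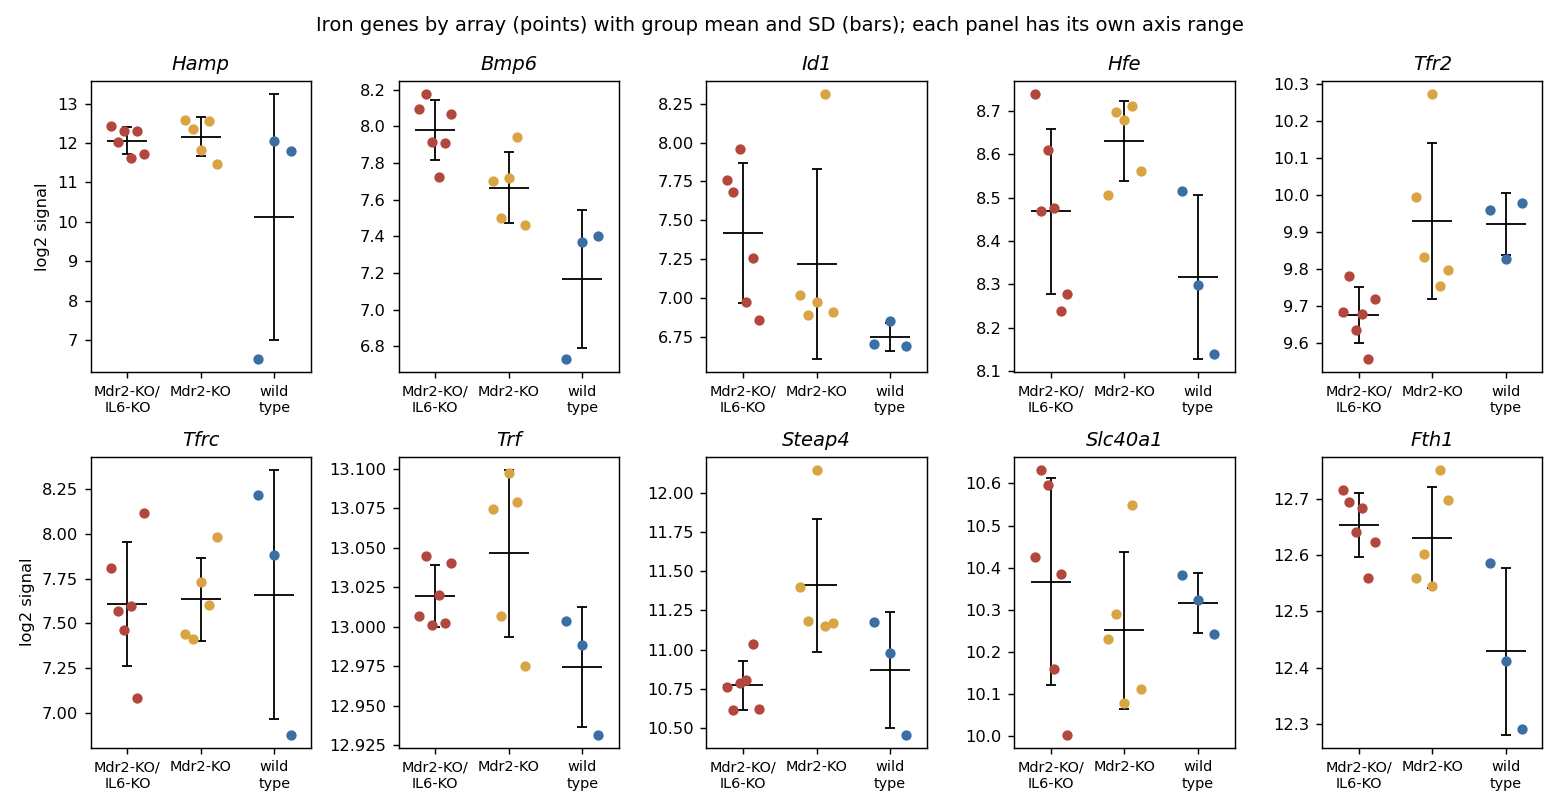
Log2 signal of each of the 10 iron genes (vertical axis, own range per panel) in every array, for Mdr2-KO/IL6-KO (n = 6), Mdr2-KO (n = 5) and wild type (n = 3). Points are arrays, and bars give the group mean with SD. For Hamp 13 arrays lie between 11.47 and 12.58 and wild-type array 1 lies at 6.53.

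In wild-type liver 1, Hamp had the lowest value relative to the other wild-type livers of all 19938 genes, a difference of -5.39 from their mean, or 41.9-fold. Hamp2 ranked next, at 6.10 against a mean of 9.64, a difference of -3.53 or 11.6-fold. The next genes that read above background in that liver were Igha, Ighm, Jchain and Etnppl, from 2.51-fold to 2.99-fold lower. Of the 20 genes of the BMP-SMAD list, 15 read lower there and 5 higher, with a median difference of -0.13. Over all 19938 genes, at least 10014 read lower as well, and fewer than 10779. The array was chosen for its values. Smad9, Bmp6 and Bmp2 are named for their low values. Smad9, a SMAD that BMP receptors act on, ranked 11th from the lowest with 6.00, against 6.99 and 7.20 in the other wild-type livers. Bmp6 ranked 54th and Bmp2, an endothelial BMP ligand, 85th, at 1.57-fold and 1.49-fold lower. Other genes that answer to BMP signals were closer to the other wild-type livers, Id1 at 1.05-fold lower, Id3 at 1.26-fold and Smad7 at 1.19-fold. At the other end was Tfrc, the receptor that takes up transferrin-bound iron, the 40th highest of all genes. It lay 0.84 log2 units above the mean of wild-type livers 2 and 3, at 8.22 against 7.88 and 6.88. Lcn2, which carries iron-binding siderophores and is made in the acute phase, was 0.52 higher, at 12.19 against 12.02 and 11.34. Steap4 was 0.46 higher, at 11.18 against 10.98 and 10.46. For each of the 3 genes, the lower of the other wild-type livers widens the gap to liver 1. The sum of 10 sinusoidal endothelial markers was 4595 in that liver, against 5312 and 5771 in the other wild-type livers, and 4294 to 5644 in Mdr2-KO/IL6-KO and 4270 to 5147 in Mdr2-KO arrays. Over all genes, which do not count as replicates, this array correlated with the other wild-type arrays at 0.992 and 0.993. The part of cell makeup or of the animal's iron state in these values was not tested.

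**Figure D2:**
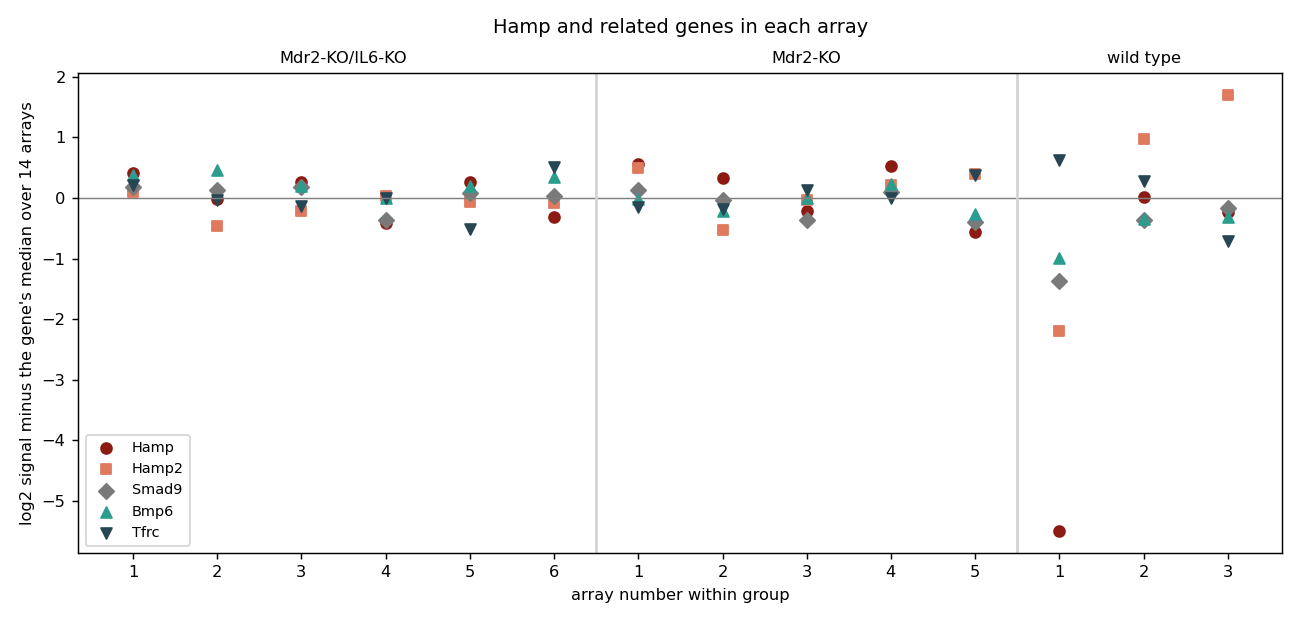
Log2 signal of Hamp, Hamp2, Smad9, Bmp6 and Tfrc minus each gene's median over 14 arrays (vertical axis), by array number within Mdr2-KO/IL6-KO, Mdr2-KO and wild type (horizontal axis). Wild-type array 1 is lowest for Hamp, Hamp2, Smad9 and Bmp6 and is the highest of all 14 for Tfrc.

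The paralog separated from Hamp in the other arrays. Hamp2 read 8.40, 7.84, 8.08, 8.33, 8.23 and 8.21 in Mdr2-KO/IL6-KO and 8.79, 7.77, 8.26, 8.51 and 8.70 in Mdr2-KO livers, against 6.10, 9.27 and 10.003 in wild type. Over all arrays it did not pass (-0.28, adjusted p = 0.820, and -0.05, adjusted p = 0.954, against wild type). Without wild-type array 1, chosen for its values, Hamp2 fell by 1.45 (SE 0.24, adjusted p = 0.00227) in Mdr2-KO/IL6-KO and by 1.23 (SE 0.24, adjusted p = 0.00501) in Mdr2-KO, where 2 wild-type livers remain. Hamp in the same fit was 0.14 and 0.24 above wild type. The 2 genes are similar in sequence, and how far their probes cross-read was not tested.

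Bmp6, the iron-responsive BMP ligand, was the member that rose against wild type in both knockouts. It read 8.10, 8.18, 7.91, 7.72, 7.91 and 8.07 in Mdr2-KO/IL6-KO and 7.70, 7.50, 7.72, 7.94 and 7.46 in Mdr2-KO livers, against 6.73, 7.37 and 7.40 in wild type. Every knockout array lies above every wild-type array, and the knockouts overlap each other. The difference was 0.81 (SE 0.14, adjusted p = 0.00172) in Mdr2-KO/IL6-KO, a 1.76-fold rise, and 0.50 (SE 0.15, adjusted p = 0.0280) in Mdr2-KO, a 1.41-fold rise. Without wild-type array 1 the first stayed past the threshold (0.60, adjusted p = 0.0111) and the second did not (0.28, adjusted p = 0.151). The Mdr2-KO call also ended without Mdr2-KO array 1 (adjusted p = 0.0522) or array 4 (adjusted p = 0.0620). Between the knockouts Bmp6 differed by 0.32 (SE 0.12, adjusted p = 0.111), which did not pass. Of 10 sinusoidal endothelial markers, 1 rose and 1 fell in each comparison with wild type and none passed between the knockouts, where 1 had an unadjusted p under 0.05. Of all genes, 6.96% rose in Mdr2-KO/IL6-KO and 8.89% in Mdr2-KO against wild type. Of 7 cholangiocyte markers 5 rose in Mdr2-KO/IL6-KO and 4 in Mdr2-KO, and of 7 recruited macrophage markers 6 and 5, with no fall in either list. Their part in the Bmp6 values was not tested.

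Id1, a transcriptional regulator that BMP signals switch on, narrowly separated the knockouts from wild type without passing the test. It read 7.76, 7.68, 7.96, 6.98, 7.26 and 6.86 in Mdr2-KO/IL6-KO and 7.02, 6.89, 6.97, 8.31 and 6.91 in Mdr2-KO livers, against 6.71, 6.86 and 6.69 in wild type. Each knockout array lies above all wild-type arrays, the closest by under 0.01, and Mdr2-KO array 4 lies above all others. The knockouts overlap each other. The differences from wild type were 0.67 (SE 0.29, adjusted p = 0.158) and 0.47 (SE 0.30, adjusted p = 0.261), and between the knockouts 0.20 (SE 0.25, adjusted p = 0.620). Without Mdr2-KO array 4 the difference in Mdr2-KO/IL6-KO passed (0.67, adjusted p = 0.0403), that in Mdr2-KO was 0.20 (adjusted p = 0.543) and that between the knockouts 0.47 (adjusted p = 0.133). The 5 genes most like Id1 over the 14 arrays, by Pearson's r as a description, were Id3 (0.94), Smad7 (0.91), Ptpn9, Nsfl1c and Vps16, the last at 0.85. Id3 and the inhibitory Smad7 are targets of BMP signals like Id1. In the array highest for Id1, Id3 read 8.83 and Smad7 7.87, also their highest values, while Hamp read 12.56. In the array lowest for Id1, wild-type array 3 (6.69), Hamp read 11.80. In the next lowest, wild-type array 1 (6.71), Hamp read 6.53.

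**Figure D3:**
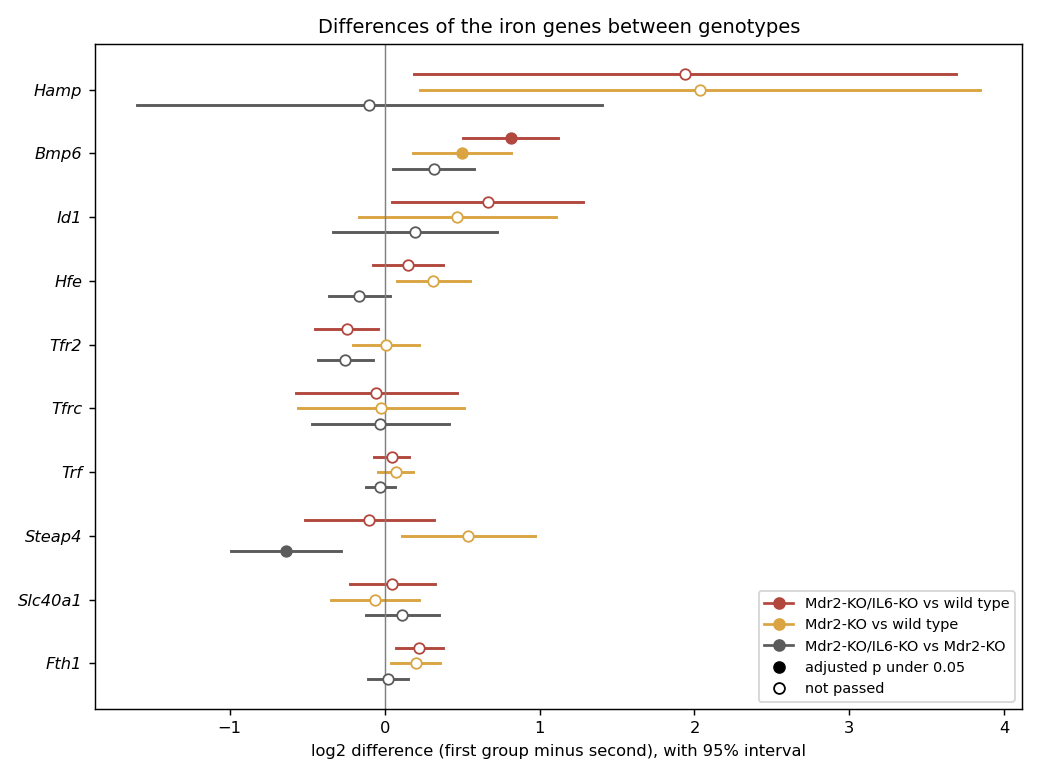
Log2 difference of each iron gene (rows) for Mdr2-KO/IL6-KO minus wild type, Mdr2-KO minus wild type, and Mdr2-KO/IL6-KO minus Mdr2-KO, with 95% intervals. Filled points passed an adjusted p of 0.05: Bmp6 in both comparisons with wild type and Steap4 between the knockouts.

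The sensors showed small differences. Hfe, which couples transferrin receptors to hepcidin control, read 8.74, 8.47, 8.61, 8.48, 8.24 and 8.28 in Mdr2-KO/IL6-KO and 8.51, 8.70, 8.68, 8.71 and 8.56 in Mdr2-KO livers, against 8.52, 8.30 and 8.14 in wild type. The groups overlap. Its difference from wild type was 0.15 (SE 0.11, adjusted p = 0.433) and 0.31 (SE 0.11, adjusted p = 0.0556), and the second passed without wild-type array 1 (0.41, adjusted p = 0.0339). Tfr2, the hepatocyte sensor of transferrin-bound iron, read 9.68, 9.78, 9.64, 9.68, 9.56 and 9.72 in Mdr2-KO/IL6-KO and 9.99, 9.83, 10.27, 9.75 and 9.80 in Mdr2-KO livers, against 9.96, 9.83 and 9.98 in wild type. All Mdr2-KO/IL6-KO arrays lie under all wild-type arrays. The difference was -0.25 from wild type (SE 0.10, adjusted p = 0.116) and -0.25 from Mdr2-KO (SE 0.08, adjusted p = 0.0645), and neither passed. Against wild type Tfr2 passed in 1 of 14 fits that left out 1 array and in 3 of 9 other settings (lowest adjusted p = 0.0327 and 0.0309). Against Mdr2-KO it passed in none of those 14 fits and in 2 of the 9 other settings (lowest adjusted p = 0.0392).

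Steap4, a metalloreductase of the plasma membrane and endosomes that inflammation induces, fell in Mdr2-KO/IL6-KO against Mdr2-KO. It read 10.76, 10.62, 10.79, 10.80, 11.04 and 10.62 in Mdr2-KO/IL6-KO and 11.40, 11.19, 12.15, 11.15 and 11.17 in Mdr2-KO livers, against 11.18, 10.98 and 10.46 in wild type. Those 2 knockout groups do not overlap, and wild type spans the gap between them. The difference between the knockouts was -0.64 (SE 0.17, adjusted p = 0.0298), 0.642-fold on the linear scale. It was -0.45 (adjusted p = 0.0439) without the highest array, Mdr2-KO array 3. That array also had the highest sum of 8 neutrophil markers, 5378, against 419 to 496 in the other Mdr2-KO arrays and 397 to 2489 in Mdr2-KO/IL6-KO arrays. The part of neutrophils in Steap4 there was not tested. The call ended without Mdr2-KO array 1 (adjusted p = 0.0647) or without Mdr2-KO/IL6-KO array 2, 4 or 6 (adjusted p = 0.0558, 0.0522 and 0.0547). Against wild type Steap4 differed by -0.10 (SE 0.20, adjusted p = 0.815) in Mdr2-KO/IL6-KO and by 0.54 (SE 0.20, adjusted p = 0.0673) in Mdr2-KO. The 5 genes most like Steap4 over the 14 arrays were Saa1 (r = 0.95), Serpina10, Fga, C4bp and Serping1 (0.92), which encode secreted plasma proteins. On chromosome 5, Steap4 lies 0.911 Mb from Abcb4, whose targeting both knockouts share, and 22.03 Mb from Il6, whose targeting sets them apart. Donor DNA linked to either gene cannot be told apart from the genotype.

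**Figure D4:**
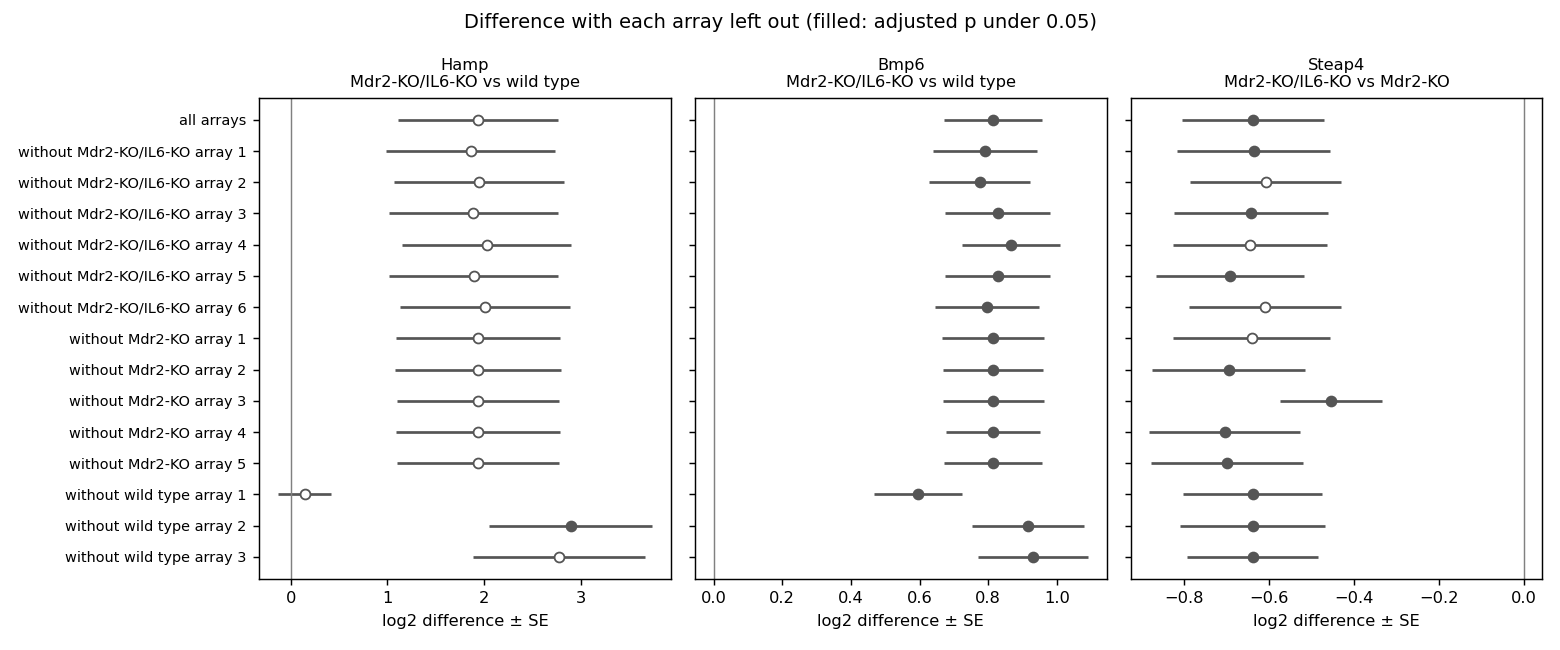
Log2 difference with its SE (horizontal axis) with all arrays and with each array left out in turn (rows), for Hamp and Bmp6 (Mdr2-KO/IL6-KO minus wild type) and for Steap4 in Mdr2-KO/IL6-KO against Mdr2-KO. Points are filled where the adjusted p is under 0.05. Hamp moves to 0.14 without wild-type array 1, Bmp6 keeps its call in every fit, and Steap4 keeps its sign.

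Trf, Tfrc, Slc40a1 and Fth1, genes of iron carriage, uptake, export and storage, passed in no comparison with all arrays in the fit. Trf, which encodes plasma transferrin, lay between 13.001 and 13.04 in Mdr2-KO/IL6-KO and between 12.98 and 13.10 in Mdr2-KO, against 12.93 to 13.004 in wild type, and its largest difference was 0.07 (SE 0.05, adjusted p = 0.340). Tfrc read 7.81, 7.57, 7.46, 7.59, 7.08 and 8.12 in Mdr2-KO/IL6-KO and 7.44, 7.41, 7.73, 7.60 and 7.98 in Mdr2-KO livers, against 8.22, 7.88 and 6.88 in wild type. The wild-type livers hold both the highest and the lowest of the 14 values. No Tfrc difference exceeded 0.06 in size, with 95% intervals within -0.57 to 0.51. The sign of the differences from wild type turned with the wild-type array left out. Without array 1 they were 0.23 (adjusted p = 0.678) in Mdr2-KO/IL6-KO and 0.25 (adjusted p = 0.516) in Mdr2-KO, and without array 3 they were -0.44 (adjusted p = 0.227) and -0.42 (adjusted p = 0.231). Slc40a1 lay between 10.004 and 10.63 in Mdr2-KO/IL6-KO and between 10.08 and 10.55 in Mdr2-KO, against 10.24 to 10.38 in wild type, and its differences from wild type were 0.05 (SE 0.13) and -0.06 (SE 0.13), with adjusted p = 0.864 and 0.749. Fth1, the ferritin heavy chain, lay between 12.56 and 12.72 in Mdr2-KO/IL6-KO and between 12.54 and 12.75 in Mdr2-KO, against 12.29 to 12.59 in wild type. It differed from wild type by 0.22 (SE 0.07, adjusted p = 0.0541) and 0.20 (SE 0.07, adjusted p = 0.0641). Without wild-type array 1, the highest of its group, both passed (0.30, adjusted p = 0.0238, and 0.28, adjusted p = 0.0269). Transferrin receptor and ferritin are controlled by iron mainly at the mRNA's stability and at translation, and protein was not measured.

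Counted together, 1 of the 10 members passed in each comparison: Bmp6 in Mdr2-KO/IL6-KO against wild type, where 12.3% of all genes passed, Bmp6 in Mdr2-KO against wild type, where 21.0% passed, and Steap4 between the knockouts, where 8.76% passed. These counts are near or under the background share and say nothing particular of the members. The groups did not overlap for 3 members (Bmp6, Id1 and Tfr2), 2 members (Bmp6 and Id1) and 1 member (Steap4), against 15.1%, 23.5% and 7.34% of all genes. The median difference of the members was 0.10, 0.26 and -0.03, against -0.02, -0.07 and 0.06 over all genes. Both comparisons with wild type share the same 3 wild-type arrays.

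Within the 6 Mdr2-KO/IL6-KO livers, none of the other 9 members followed Hamp past the threshold. The strongest relation was with Id1, with Pearson's r = 0.79 (2-sided exact permutation p = 0.0931, adjusted p = 0.521 over 9 relations) and Spearman's rho = 0.83 (exact permutation p = 0.0583, adjusted p = 0.525). Without the 2 arrays farthest from the median of Hamp, which hold its lowest values in this group (11.61 and 11.71), r was 0.07. Leaving them out also narrows the range of Hamp, so this r cannot decide what the relation rests on. The genes most like Hamp over all 14 arrays were Rab7 (r = 0.94), Smad9 (0.91), E2f4, Dhrs11 and Arf1 (0.86), an order that wild-type array 1 sets. Without it they were Mrc1 (0.82), Btk, Hadhb, Gtf2b and Ptma-ps2 (0.78), and none is in both sets. The 5 most like Bmp6 were Map4k4 (0.91), Polr2a, Mrtfb, Rbpms and Tuba8 (0.90). Such lists, like those of Id1 and Steap4, pool the 3 genotypes, so that differences between the groups enter each r.

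The wider iron pathway was read from 8 lists with 72 measured genes, of which 11 rose and 5 fell in Mdr2-KO/IL6-KO set beside wild type, where 6.96% of all genes rose and 5.33% fell. In Mdr2-KO 12 rose and 6 fell relative to wild type, where 8.89% of all genes rose and 12.1% fell. Between the knockouts 6 rose and 3 fell, where 5.04% of all genes rose and 3.72% fell. After median centring of the arrays the counts were 5 and 6, 13 and 5, and 3 and 5. Of the calls as deposited, 3 of 16 held in each of the 14 fits that left out 1 array (Steap3, Flvcr2 and Cpox) in Mdr2-KO/IL6-KO relative to wild type. For Mdr2-KO 6 of 18 did (Atoh8, Tmprss6, Steap3, Cpox, Ftl1 and Iscu), and between the knockouts 4 of 9 (Acvr2a, Blvrb, Slc48a1 and Iscu). Of 20 genes of the BMP-SMAD list, 5 rose and none fell in Mdr2-KO/IL6-KO against wild type. They were Smad9 (0.68, SE 0.21, adjusted p = 0.0466), Atoh8 (0.68, SE 0.17, adjusted p = 0.0148), Smad7 (0.55, adjusted p = 0.0403), the BMP co-receptor Hjv (0.31, adjusted p = 0.0146) and Neo1 (0.23, adjusted p = 0.0476). All 5 calls ended without wild-type array 1, where Smad9 differed by 0.31 (adjusted p = 0.279), Atoh8 by 0.62 (adjusted p = 0.0692), Smad7 by 0.47 (adjusted p = 0.162), Hjv by 0.26 (adjusted p = 0.0838) and Neo1 by 0.24 (adjusted p = 0.0920). In Mdr2-KO 4 rose and none fell: Id3 (0.79, SE 0.27, adjusted p = 0.0480), Atoh8, a transcription factor that BMP signals induce (0.72, SE 0.17, adjusted p = 0.00980), Tmprss6, the protease that cleaves hemojuvelin and restrains hepcidin (0.52, SE 0.10, adjusted p = 0.00275), and Smad1 (0.27, adjusted p = 0.0210). The Id3 call ended in 10 of the 14 fits that left out 1 array. Tmprss6 read 9.27 to 9.74 in Mdr2-KO/IL6-KO and 9.76 to 9.94 in Mdr2-KO, against 9.15 to 9.52 in wild type, and fell between the knockouts by 0.32 (SE 0.08, adjusted p = 0.0275). That Tmprss6 call between the knockouts ended in 4 of the 14 fits that left out 1 array. The activin receptor gene Acvr2a fell there by 0.25 (adjusted p = 0.0177).

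Of the 7 genes of the interleukin 6 and STAT3 list, Stat3 fell by 0.48 (SE 0.12, adjusted p = 0.0157) in Mdr2-KO/IL6-KO and by 0.36 (SE 0.12, adjusted p = 0.0495) in Mdr2-KO against wild type. In Mdr2-KO the shared receptor subunit Il6st rose by 0.18 (adjusted p = 0.0450). Between the knockouts none of the 7 passed in limma and 1 had an unadjusted p under 0.05. That was Il6 itself, whose values under background differed by 0.41 (SE 0.12, adjusted p = 0.0527), and the STAT3 feedback gene Socs3 differed by -0.25 (SE 0.17, adjusted p = 0.335). Both Mdr2-KO calls were fragile: Stat3 lost its call in 12 and Il6st in 11 of the 14 fits that left out 1 array.

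Among 9 other uptake genes, Steap3, the ferrireductase of the transferrin endosome, had the firmest change from wild type. It read 8.96, 9.15, 8.96, 9.10, 8.86 and 8.98 in Mdr2-KO/IL6-KO and 8.65, 8.81, 8.77, 8.79 and 8.69 in Mdr2-KO livers, against 7.88, 8.03 and 8.17 in wild type. The 3 groups do not overlap. Steap3 rose by 0.98 (SE 0.08, adjusted p = 2.14e-06) in Mdr2-KO/IL6-KO and by 0.72 (SE 0.08, adjusted p = 4.62e-05) in Mdr2-KO against wild type, and by 0.26 (SE 0.07, adjusted p = 0.0275) between the knockouts. The Steap3 call between the knockouts ended in 4 of the 14 fits that left out 1 array. It also ended with median centring (0.21, adjusted p = 0.0650). Slc39a14, the hepatocyte importer of iron not bound to transferrin, fell in Mdr2-KO/IL6-KO against wild type (-0.59, SE 0.17, adjusted p = 0.0315) and against Mdr2-KO (-0.58, SE 0.14, adjusted p = 0.0248). It read 9.36 to 9.86 in Mdr2-KO/IL6-KO and 9.86 to 10.76 in Mdr2-KO, against 10.10 to 10.33 in wild type. Those 2 calls of Slc39a14 ended in 6 and 2 of the 14 fits that left out 1 array. Of these uptake genes the largest difference between the knockouts, -0.77 for the ferritin receptor Scara5, did not pass (SE 0.26, adjusted p = 0.0715).

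**Figure D5:**
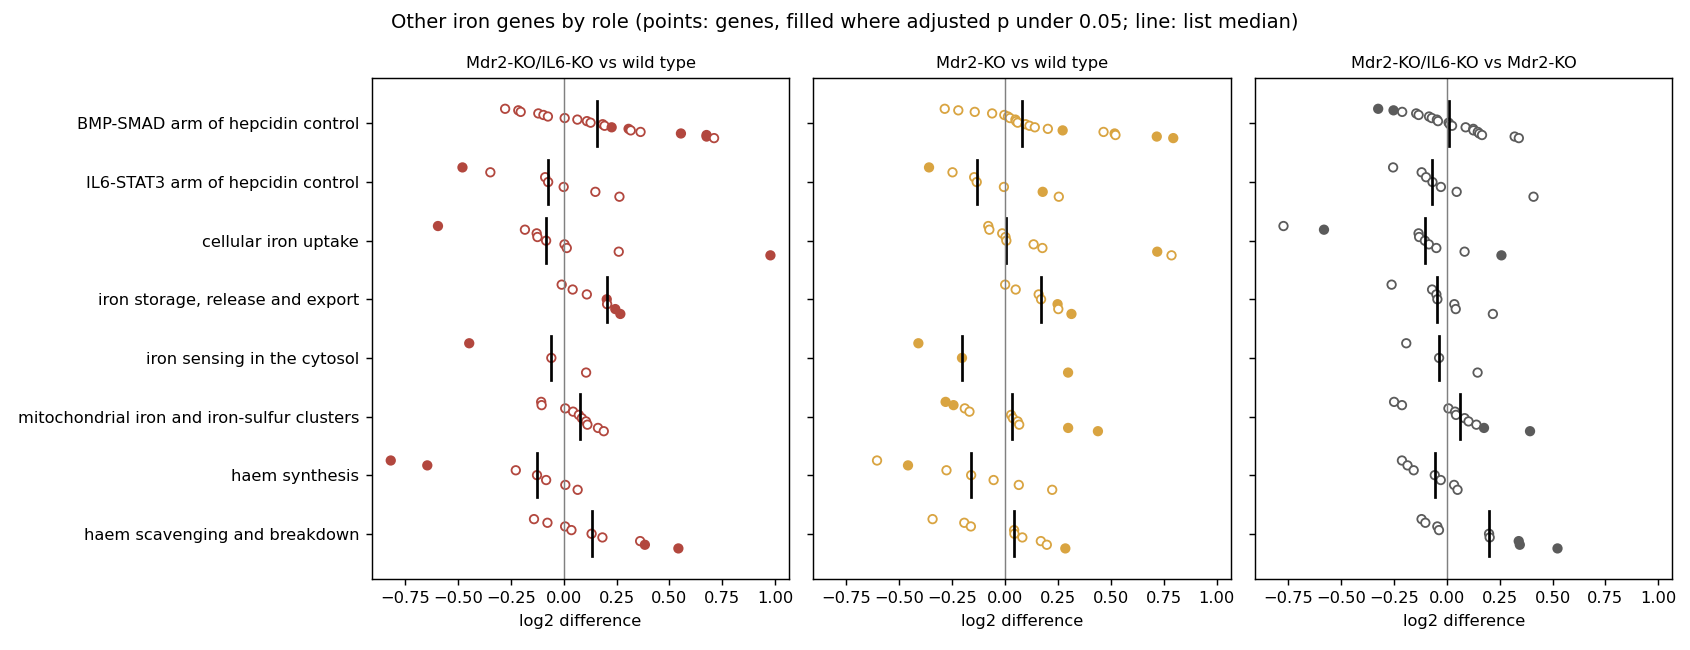
Log2 difference (horizontal axis) of the 72 measured genes of 8 iron lists (rows), for Mdr2-KO/IL6-KO minus wild type, Mdr2-KO minus wild type and Mdr2-KO/IL6-KO minus Mdr2-KO. Points are genes, filled where the adjusted p is under 0.05, and black lines are list medians. The farthest filled point is Steap3 at 0.98 in Mdr2-KO/IL6-KO against wild type.

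Of 7 genes for storage, release and export, the ferritin light chain Ftl1 rose by 0.24 (SE 0.07, adjusted p = 0.0312) and the iron chaperone Pcbp2 by 0.20 (SE 0.06, adjusted p = 0.0369) in Mdr2-KO/IL6-KO against wild type. In Mdr2-KO they rose by 0.31 (SE 0.07, adjusted p = 0.00737) and 0.25 (SE 0.06, adjusted p = 0.0120). The Mdr2-KO/IL6-KO calls of Ftl1 and Pcbp2 each ended in 6 of the 14 fits that left out 1 array. The ferroxidase Heph read 5.64 to 5.83 in Mdr2-KO/IL6-KO, against 5.41 to 5.52 in wild type, whose mean lies under background, so that no size is given. It passed there (adjusted p = 0.0460), a call that ended in 11 of the 14 fits that left out 1 array. Between the knockouts none of the 7 passed in limma, 1 at an unadjusted p under 0.05, and the largest difference was -0.26 for Lcn2 (adjusted p = 0.459).

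The 3 cytosolic sensors all passed in Mdr2-KO against wild type, where 21.0% of all genes passed. Ireb2, an iron regulatory protein that binds ferritin and transferrin receptor mRNAs, fell by 0.41 (SE 0.11, adjusted p = 0.0170). Aco1, its relative with an iron-sulfur cluster, fell by 0.20 (SE 0.07, adjusted p = 0.0370), and Fbxl5, the ligase subunit that removes Ireb2 protein, rose by 0.30 (SE 0.09, adjusted p = 0.0304). The calls ended in 2, 6 and 5 of the 14 fits that left out 1 array for Ireb2, Aco1 and Fbxl5, and those of Aco1 and Fbxl5 also with only these 2 groups in the fit (adjusted p = 0.0868 and 0.0695). In Mdr2-KO/IL6-KO only Ireb2 passed, with a fall of 0.45 (SE 0.11, adjusted p = 0.0121), and whether Aco1 and Fbxl5 differ in effect is the comparison of the knockouts, where neither passed (0.15, adjusted p = 0.0942, and -0.19, adjusted p = 0.112).

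Iscu, the scaffold on which iron-sulfur clusters are built, set the knockouts apart. It read 10.38, 10.49, 10.40, 10.36, 10.35 and 10.50 in Mdr2-KO/IL6-KO and 10.07, 10.03, 9.98, 9.95 and 10.07 in Mdr2-KO livers, against 10.27, 10.39 and 10.24 in wild type. No Mdr2-KO array reaches the lowest array of either other group. Iscu rose by 0.39 (SE 0.05, adjusted p = 0.000769) in Mdr2-KO/IL6-KO against Mdr2-KO, fell by 0.28 (SE 0.06, adjusted p = 0.00615) in Mdr2-KO against wild type, and differed by 0.11 (SE 0.06, adjusted p = 0.269) in Mdr2-KO/IL6-KO against wild type. Of the 10 mitochondrial genes, Isca1 (0.44, SE 0.10, adjusted p = 0.00707) and Fdx1 (0.30, SE 0.08, adjusted p = 0.0204) rose and Lyrm4 fell by 0.24 (SE 0.07, adjusted p = 0.0246) in Mdr2-KO against wild type. The mitochondrial iron importer Slc25a28 rose between the knockouts (0.18, SE 0.05, adjusted p = 0.0397), a call that ended in 11 of the 14 fits that left out 1 array. In Mdr2-KO/IL6-KO against wild type none of the 10 passed in limma and none had an unadjusted p under 0.05, the largest difference being 0.19 for Isca1 (adjusted p = 0.238).

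In haem synthesis, 2 of 7 genes fell in Mdr2-KO/IL6-KO against wild type, where 5.33% of all genes fell. Cpox, coproporphyrinogen oxidase, read 8.93, 8.66, 8.61, 8.51, 8.70 and 8.66 in Mdr2-KO/IL6-KO and 8.71, 8.84, 8.78, 9.16 and 8.82 in Mdr2-KO livers, against 9.42, 9.18 and 9.37 in wild type. All knockout arrays lie under all wild-type arrays. Cpox fell by 0.64 (SE 0.10, adjusted p = 0.000833) in Mdr2-KO/IL6-KO and by 0.46 (SE 0.11, adjusted p = 0.00762) in Mdr2-KO. Alas1, the first and rate-limiting enzyme, fell by 0.82 (SE 0.24, adjusted p = 0.0362) in Mdr2-KO/IL6-KO, and its difference of -0.61 in Mdr2-KO did not pass (SE 0.25, adjusted p = 0.0890). The Alas1 call ended in 6 of the 14 fits that left out 1 array. Between the knockouts none of the 7 passed in limma, 1 at an unadjusted p under 0.05, and Alas1 differed by -0.21 (adjusted p = 0.505).

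Of 9 genes for haem scavenging and breakdown, 3 rose in Mdr2-KO/IL6-KO against Mdr2-KO, where 5.04% of all genes rose. Blvrb, a biliverdin reductase, rose by 0.52 (SE 0.11, adjusted p = 0.0114), Flvcr2 by 0.35 (SE 0.10, adjusted p = 0.0393) and the haem transporter Slc48a1 by 0.34 (SE 0.08, adjusted p = 0.0151). This Flvcr2 call ended in 9 of the 14 fits that left out 1 array, and with median centring (0.30, adjusted p = 0.0705). Blvrb read 10.46 to 10.90 in Mdr2-KO/IL6-KO and 9.80 to 10.60 in Mdr2-KO, against 10.22 to 10.42 in wild type. Flvcr2 (0.54, SE 0.11, adjusted p = 0.00528) and Slc48a1 (0.38, SE 0.09, adjusted p = 0.0104) also rose in Mdr2-KO/IL6-KO against wild type, while in Mdr2-KO the haemoglobin-binding Hp alone passed (0.28, SE 0.09, adjusted p = 0.0340). Hmox1, haem oxygenase 1, passed in no comparison, with differences between -0.34 and 0.20. The sum of 4 erythroid and blood markers was 409 to 556 in Mdr2-KO/IL6-KO and 404 to 515 in Mdr2-KO, against 409 to 553 in wild type.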

How the data were processed

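Gene expression was measured on 14 Affymetrix arrays of total liver RNA. The deposited values are log2 signals, which per the submitters' processing notes were made with Partek and RMA. Their versions, the genome build of the probes and any pooling could not be read from the labels or file header and are not given in the sources used. RMA adjusts whole distributions between arrays, so a shift shared by most genes cannot be seen. Of 35557 probes, 21789 are annotated to 1 gene, 1621 to several and 12147 to none. The probe of highest mean stood for each gene, without a filter on dim genes, and each member had 1 such probe. Promoters come from RefSeq, GRCm38.p6.

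Genes were tested with limma 3.58.1 in R 4.3.3, fitting 1 mean per genotype to all 14 arrays, with empirical Bayes moderation, 2-sided tests and Benjamini-Hochberg adjustment over 19938 genes. Adjusted p-values in the text come from that fit unless a setting is named. Python 3.11.15 handled tables and matplotlib 3.10.9 drew the plots. In a test on simulated data with these group sizes, 73%, 69% and 86% of changes of 0.5 log2 units were recovered. The rates are for the Mdr2-KO/IL6-KO and Mdr2-KO comparisons with wild type and that between the knockouts, with 14, 7 and 10 false calls. The noise was normal and independent at each gene's spread. Single far-off arrays, as for Hamp, were not simulated, so the rates do not cover such genes. The labels name separate samples without saying how mice were paired or batched, and p-values measure only the spread between these samples, which may be technical. No 2 arrays were identical.

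The members, lists and markers were chosen with earlier results of these data known. The rule named all members, Abcb4, Il6 and Hamp2, and per list and comparison up to 4 genes past the threshold by size of change, or the largest where none passed. Likeness covers genes with a mean above background. Neo1, Socs3, Hmox1, Scara5 and the genes lowest in wild-type array 1 are named beyond it where a statement turns on them, after their values were seen. Alternatives were quantile normalization, median centring, leaving out genes in the lowest tertile of mean signal, trend and robust moderation, array weights, a fold change of at least 1.5, only the 2 groups compared, the mean of a gene's probes, each array left out, and wild-type array 2 with Mdr2-KO array 3 left out. Added after the data were seen was leaving out wild-type array 1 with Mdr2-KO array 3.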

Additional observations from a re-analysis of the deposited data

Results flagged for a closer look

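In 20 sets of 1 member and 1 knockout genotype, 2 had a value far from the rest by Dixon's gap test, and chance gives about 1 in 20. Id1 read 8.31 in Mdr2-KO array 4, while the nearest Mdr2-KO array read 7.02, a gap of 0.913 of the group's range against a critical value of 0.710. Steap4 read 12.15 in Mdr2-KO array 3, while the nearest read 11.40, a gap of 0.747 of the range. The wild-type group has 3 arrays and was not checked this way, so the Hamp value of 6.53 in wild-type array 1 was not part of it.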

How the results depend on the processing

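No paired analysis was possible because the labels link no mouse of 1 genotype to a mouse of another. For the knockouts the labels give each sample its own identifier, and the array numbers used here follow sample order. No alternative turned the sign of a called value. The number of genes called at a fold change of at least 1.5 was 748 and 799 for Mdr2-KO/IL6-KO and Mdr2-KO relative to wild type, and 150 for the 2 knockouts, by construction fewer than the 2450, 4189 and 1746 without that minimum. With 1 array left out the counts ranged from 1635 to 2544, from 2140 (without wild-type array 3) to 4507, and from 754 (without Mdr2-KO array 1) to 2164. Without wild-type array 2 and Mdr2-KO array 3 the knockouts differed in 970 genes. Without wild-type array 1 and Mdr2-KO array 3 they differed in 868 genes, and Mdr2-KO and wild type in 2623. Scaling moved the split of higher and lower calls: median centring gave 1006 and 1573 in Mdr2-KO/IL6-KO against wild type, where the fit as deposited gave 1388 and 1062, and 424 and 1056 between the knockouts, where it gave 1005 and 741. Quantile normalization gave 675 and 852 between the knockouts. The cause was not tested.

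Of the 10 members, the count called in Mdr2-KO/IL6-KO against wild type was 2 with quantile normalization, the dimmest tertile left out, trend and robust moderation, only the 2 groups, or wild-type array 1 and Mdr2-KO array 3 left out. It was 3 with array weights or with wild-type array 2 and Mdr2-KO array 3 left out, and 1 to 2 with 1 array left out. In Mdr2-KO against wild type it was 0 with the fold minimum or only the 2 groups, 2 with quantile normalization, the dimmest tertile left out, array weights or either pair of arrays left out, and 0 to 2 with 1 array left out. Between the knockouts it was 2 with median centring or array weights, and 0 to 1 with 1 array left out.

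Hamp passed with array weights at 3.65 (adjusted p = 0.00675) in Mdr2-KO/IL6-KO and 3.77 (adjusted p = 0.00760) in Mdr2-KO against wild type, and without wild-type array 2 and Mdr2-KO array 3 at 2.90 (adjusted p = 0.0473) and 3.08 (adjusted p = 0.0322). With 1 array left out its difference ranged from 0.14 to 2.90, from 0.24 to 2.996 and, between the knockouts, from -0.27 to 0.01. Other probes of a member were not run, since each has 1. The number of arrays and, for Il6, signal under background limit what could be seen.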
